A study of Macaca mulatta with 22 samples.

Results

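The enzymes that turn progestin precursors into androgens and estrogens were followed in the ovulatory follicle of the rhesus macaque. All probe sets whose single gene symbol in the platform annotation was CYP17A1, CYP19A1, HSD17B1, HSD17B4, HSD17B7 or CYB5A were taken, which gave 12 probe sets of 6 genes. The arrays held 52766 tested probe sets, of which 24956 had a single symbol and named 14132 genes. CYP17A1 and CYB5A each had 2 probe sets, HSD17B4 and HSD17B7 each had 3, and CYP19A1 and HSD17B1 each had 1. Probe sets were matched by gene name alone, while the 6 genes were picked with earlier results of these data known. Probe sets of a gene are annotated to the same gene, so they cannot be taken as independent measurements.

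Each of 22 Affymetrix rhesus macaque arrays measured total RNA of 1 whole follicle from a female in a controlled ovulation protocol. Once serum estradiol had reached 100 to 120 pg/ml, the animals of every group received Acyline, which blocks the GnRH receptor, at 0.1 ml/kg. With it came 30 IU each of recombinant human FSH and LH. The antagonist silences the animal's own gonadotropins and the hormones replace them. Follicles of the 0 h group (n = 6) were taken with no ovulatory hCG, the hormone that stands in for the LH surge. The other groups followed 1000 IU of recombinant human hCG and were collected 12 h (n = 4), 24 h (n = 4) or 36 h later, the last split into unruptured follicles (n = 4, replicates 1 to 4) and ruptured ones (n = 4, replicates 5 to 8). The labels do not state which arrays came from separate animals, and a p-value here covers only follicle-to-follicle spread, which may be technical in part. They call every sample an ovulatory follicle in its title, while all descriptions but that of 0 h replicate 1 speak of a developing corpus luteum.

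Steroid synthesis in the follicle is shared between cell layers. Theca cells express CYP17A1, which hydroxylates progestins and cleaves them to androgens, and cytochrome b5, encoded by CYB5A, enhances the cleavage step. Granulosa cells express CYP19A1 (aromatase), which converts androgens to estrogens, and HSD17B1, which reduces estrone to the more potent estradiol. HSD17B4 is a peroxisomal multifunctional enzyme that can oxidise estradiol and also serves fatty acid beta-oxidation, and HSD17B7 reduces estrone and also acts in cholesterol synthesis. After the LH surge, the follicle turns from estrogen to progesterone production as it becomes a corpus luteum.

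The values are log2 of the deposited robust multi-array average (RMA) intensities, on which a difference of 1 is a 2-fold change. The median intensity of an array lay between 26.1 and 26.7 on the linear scale, and the median probe set stood at 4.73 on the log2 scale. Differences were tested with limma over all 22 arrays, with Benjamini-Hochberg adjustment over all 52766 probe sets in each comparison. A change was called at an adjusted p under 0.05. Groups can also fail to overlap by follicle. Of all probe sets, 9.83% had no overlap at 12 h against 0 h and 7.23% at 24 h against 0 h. Against 0 h it was 8.01% in unruptured and 13.7% in ruptured follicles. The share was 13.1% at 24 h against 12 h, 15.3% in unruptured against 12 h and 15.2% in ruptured against unruptured follicles. The median change of all probe sets was between -0.03 and 0.00 on the log2 scale in each of the 10 comparisons, so members are read against a centre near 0. Over the 5 groups together, limma's F test called 11 of the 12 probe sets, against 20.1% of all probe sets. The member it did not call was the dimmest HSD17B4 probe set (adjusted p = 0.264). Most members are brighter than the median probe set. When only the 23969 probe sets with a mean log2 of at least 5 were fitted, the F test called 52% of them. That fit called 27.7% at 12 h against 0 h, 22.7% at 24 h against 12 h and 38.4% in ruptured against 0 h follicles. In ruptured follicles it called 29.5% against unruptured ones, 27.6% against 24 h and 8.82% against 12 h. Unruptured follicles had 28.7% against 12 h and 16.7% against 0 h, and 24 h against 0 h had 13%. The fit left out the second CYP17A1 and the dimmest HSD17B4 probe set.

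Granulosa and theca markers were both measured in these whole follicles, so fewer cells of a type and less RNA per cell cannot be told apart. Of 13 measured granulosa markers, 5 were called lower and 0 higher at 12 h against 0 h, with a median change of -1.36. Their summed intensity on the log2 scale ranged from 14.28 to 14.72 at 0 h, 13.71 to 14.51 at 12 h, 13.66 to 13.95 at 24 h, 13.76 to 14.02 in unruptured and 13.89 to 14.38 in ruptured follicles at 36 h. Of 13 measured theca and stroma markers, 2 were called lower at 12 h against 0 h, HHIP and OGN, and their sum stayed between 14.32 and 14.85 in every array. Granulosa markers called lower against 0 h numbered 3 at 24 h (median change -1.26), 3 in unruptured (-1.03) and 3 in ruptured follicles (-0.68), with 0 higher in each. Theca and stroma markers called against 0 h numbered 0 at 24 h, 1 lower in unruptured follicles, and 1 higher and 3 lower in ruptured ones. Against 0 h, 15.8% of all probe sets were called in ruptured follicles, 4.72% in unruptured ones, 3.36% at 24 h and 9.33% at 12 h. Of 10 macrophage and monocyte markers, 4 were called higher at 12 h against 0 h, with sums of 10.75 to 11.57 at 0 h and 11.27 to 12.65 at 12 h. Of 11 endothelial, 7 oocyte and 6 lymphocyte markers, 0 were called in that comparison, and of 6 smooth muscle markers 1 was called higher (TAGLN). Of the 6 lymphocyte markers, CD79A was the dimmest by its mean over all arrays. In each group 4 or 5 of the 6 averaged below the median probe set. The signal of RNA 3′ ends over 5′ ends of control transcripts, an index of RNA quality, averaged 0.702 ± 0.102 (SD, n = 4) in 12 h and 0.613 ± 0.070 (SD, n = 6) in 0 h follicles. In 12 h replicate 3 it was 0.853, while the other 12 h follicles, at 0.626 to 0.666, lay within the 0 h range of 0.506 to 0.699. That replicate was the lowest 12 h follicle for the brightest probe sets of CYP17A1, HSD17B7 and CYB5A, but not of CYP19A1, HSD17B1 or HSD17B4. The part of these shifts in the results below was not tested, except where a value with the index in the fit is given.

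CYP17A1 was high in every follicle before hCG and low in every follicle by 24 h. Its brighter probe set (MmuSTS.4193.1.S1_at) read 12.55, 12.44, 11.90, 12.18, 11.56 and 11.69 at 0 h. It read 10.44, 9.70, 8.97 and 11.51 at 12 h, 7.51, 7.26, 7.98 and 8.55 at 24 h. The 12 h follicles therefore lay between the other groups without touching them, with replicate 4 only just below the lowest 0 h follicle. At 36 h CYP17A1 read 7.79, 7.83, 7.10 and 7.45 in unruptured follicles and 6.83, 7.10, 7.75 and 7.28 in ruptured ones, which overlap each other and the 24 h group.

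The group means of CYP17A1 were 12.05 ± 0.40 (SD, n = 6) at 0 h, 10.15 ± 1.09 (SD, n = 4) at 12 h and 7.82 ± 0.57 (SD, n = 4) at 24 h. The gene fell by 1.89 ± 0.38 (SE) from 0 h to 12 h, a 3.72-fold decrease (limma adjusted p = 0.00326). It fell by a further 2.33 ± 0.41 (SE) from 12 h to 24 h, a 5.04-fold decrease (limma adjusted p = 0.00212). When only the 8 arrays of those 2 groups were fitted, the second step no longer passed (limma adjusted p = 0.102). Against 0 h, CYP17A1 was 18.7-fold lower at 24 h, 22.7-fold lower in unruptured and 28.0-fold lower in ruptured follicles at 36 h, with no overlap (limma adjusted p of 4.33e-06, 7.81e-06 and 1.78e-07). These 3 comparisons share the 0 h follicles. Among all 52766 probe sets, this one ranked 19 by limma's F test.

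The second CYP17A1 probe set (MmugDNA.37726.1.S1_at) is dim and showed the first step but not the second. Its means on the log2 scale were 5.80 ± 0.74 (SD, n = 6) at 0 h, 2.85 ± 0.56 (SD, n = 4) at 12 h and 2.71 ± 0.39 (SD, n = 4) at 24 h, so it was already below the median probe set by 12 h. The decrease to 12 h was 2.95 ± 0.42 (SE; limma adjusted p = 0.000241), and the difference from 12 h to 24 h was -0.14 with a 95% interval of -1.11 to 0.82. In ruptured follicles it read 2.84, 1.34, 3.18 and 1.26 and in unruptured ones 4.14, 3.36, 3.33 and 3.12. Those groups overlapped, and the difference of -1.33 missed the threshold (limma adjusted p = 0.078). Over the 22 arrays both probe sets had a Pearson correlation of 0.74, and -0.16 once group means were removed.

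CYP19A1, the only enzyme that forms estrogens from androgens, was 2.33-fold lower in mean at 12 h, short of the threshold, and fell by 24 h. Its single probe set read 11.50, 12.12, 11.96, 9.93, 10.74 and 11.80 at 0 h and 11.15, 9.10, 9.61 and 10.64 at 12 h. At 24 h it read 5.76, 6.90, 6.87 and 8.31. The first pair of groups overlapped, while every 24 h follicle was below every 12 h follicle. At 36 h, unruptured follicles read 5.56, 5.32, 7.05 and 5.96 and ruptured ones 7.47, 6.74, 9.11 and 6.31. Ruptured replicate 7 stood as high as the lowest 12 h follicle.

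The means of CYP19A1 were 11.34 ± 0.85 (SD, n = 6) at 0 h and 10.12 ± 0.93 (SD, n = 4) at 12 h, and the difference of -1.22 did not pass (95% interval -2.47 to 0.04, limma adjusted p = 0.246). From 12 h to 24 h the gene fell by 3.16 ± 0.66 (SE), an 8.96-fold decrease to 6.96 ± 1.04 (SD, n = 4; limma adjusted p = 0.00637). With the 8 arrays of those groups alone the adjusted p was 0.0731. Against 0 h the decrease was 20.8-fold at 24 h, 41.4-fold in unruptured follicles at 36 h and 15.3-fold in ruptured ones, with no overlap (limma adjusted p of 0.000403, 5.67e-05 and 0.000162).

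Within 36 h, the CYP19A1 mean was 7.41 ± 1.23 (SD, n = 4) in ruptured and 5.97 ± 0.77 (SD, n = 4) in unruptured follicles. The difference of 1.44 ± 0.66 (SE) did not pass over all probe sets (limma adjusted p = 0.198), with a 95% interval of 0.06 to 2.81. The ruptured follicles were also called lower than the 12 h follicles (-2.72, limma adjusted p = 0.0421), although those groups overlapped. That call was lost when any of 12 h replicates 1, 3 and 4 or ruptured replicates 5, 6 and 8 was left out (adjusted p from 0.0612 to 0.123), and with the RNA 3′ index in the fit, where the change was larger (-3.24, adjusted p = 0.0584).

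**Figure D1:**
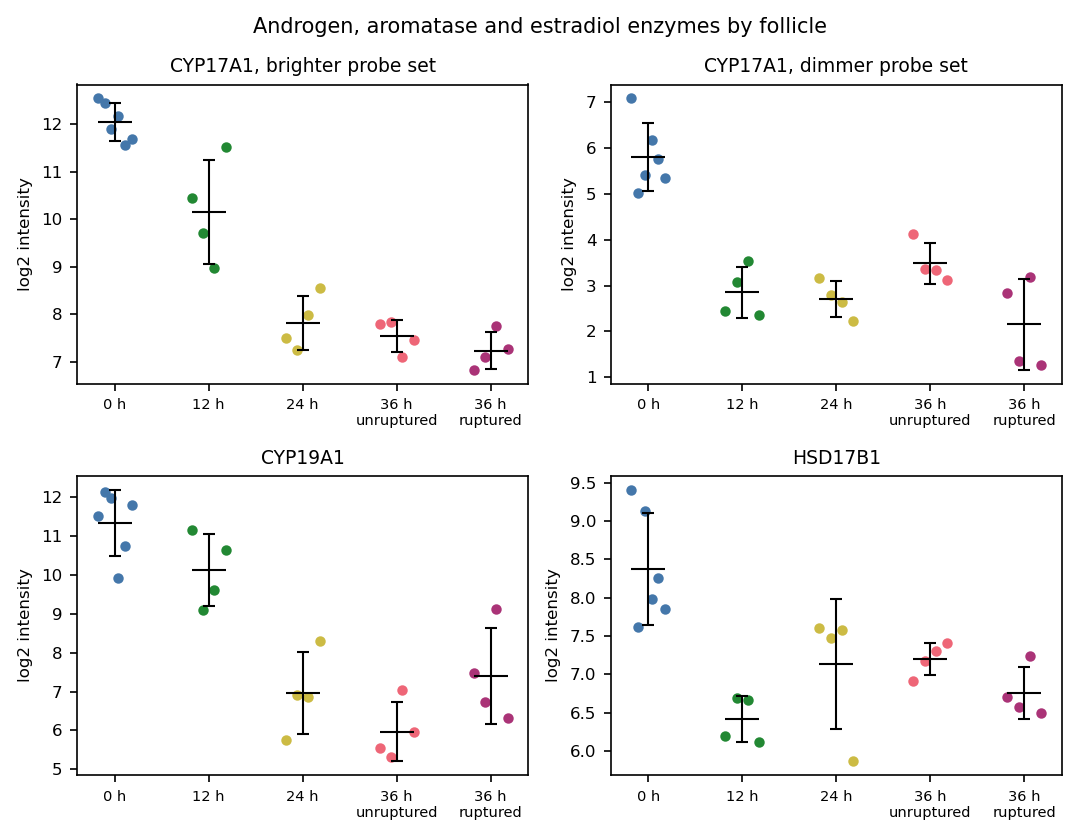
Each point is 1 follicle, the vertical axis is log2 intensity (each panel with its own range), and the bar and whiskers are the group mean and SD, for the 2 CYP17A1 probe sets, CYP19A1 and HSD17B1 in the 5 groups. All 24 h and 36 h follicles lie below all 0 h follicles in these 4 panels, while at 12 h CYP19A1 still overlaps the 0 h group.

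HSD17B1, which makes estradiol from estrone, had its lowest mean at 12 h, before CYP19A1 reached its own. The probe set (MmugDNA.19417.1.S1_at) read 9.41, 7.62, 9.13, 7.99, 8.26 and 7.85 at 0 h and 6.20, 6.69, 6.66 and 6.12 at 12 h. At 24 h 3 follicles read 7.61, 7.47 and 7.58 and replicate 4 read 5.87, below every other follicle of the series. At 36 h unruptured follicles read 6.91, 7.18, 7.31 and 7.41 and ruptured ones 6.70, 6.57, 7.25 and 6.50. The 12 h, 24 h and 36 h groups were each wholly below the 0 h group, and every unruptured follicle was above every 12 h follicle.

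HSD17B1 fell by 1.96 ± 0.36 (SE) from a mean of 8.38 ± 0.73 (SD, n = 6) at 0 h to 6.42 ± 0.30 (SD, n = 4) at 12 h, a 3.88-fold decrease (limma adjusted p = 0.00182). The differences from 0 h at 24 h (-1.24, adjusted p = 0.0656) and in unruptured follicles (-1.17, adjusted p = 0.0702) missed limma's threshold. When 16 was added to every intensity before the log, both passed (limma adjusted p of 0.033 and 0.0341). Ruptured follicles were 3.07-fold lower than 0 h follicles (-1.62 ± 0.36 SE, limma adjusted p = 0.00396). Between 12 h and 24 h the difference was 0.71, with a 95% interval of -0.11 to 1.54 (limma adjusted p = 0.343). The unruptured group exceeded the 12 h group by 0.78 (limma adjusted p = 0.254).

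Whether these 3 enzymes changed by unequal amounts was tested within arrays, over 8 differences between gene pairs, with exact two-sided permutation tests. From 12 h to 24 h, HSD17B1 changed by 3.88 more than CYP19A1 (exact p = 0.0571). Between unruptured and ruptured follicles at 36 h, HSD17B1 changed by 1.89 less than CYP19A1 on the log2 scale (a difference of -1.89, exact p = 0.0286, the smallest that 4 against 4 follicles allow). CYP19A1 changed by 1.74 more than CYP17A1 over that same pair (exact p = 0.0857), and by 2.77 more with the second CYP17A1 probe set. After Benjamini-Hochberg adjustment over the 8 tests, the exact permutation p-values ran from 0.229 to 0.371 and none passed. An exact test of 4 against 4 follicles cannot go below 0.0286, and 1 of 4 against 6 cannot go below 0.00476.

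HSD17B4 fell by 12 h, came back by 24 h and was low again in ruptured follicles. Its brightest probe set (MmuSTS.2527.1.S1_at) read 9.42, 9.21, 9.04, 9.14, 9.50 and 9.06 at 0 h, 8.39, 8.97, 8.55 and 8.44 at 12 h and 9.23, 9.25, 9.33 and 8.95 at 24 h. At 36 h it read 8.91, 9.24, 8.87 and 9.10 in unruptured follicles and 8.05, 8.56, 8.53 and 8.46 in ruptured ones. No 12 h follicle reached the 0 h range and no ruptured follicle reached the unruptured range, while 12 h replicate 2 lay just above the lowest 24 h follicle.

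The HSD17B4 decrease to 12 h was 0.64 ± 0.15 (SE), or 1.56-fold (limma adjusted p = 0.00814), and it missed the threshold when the 10 arrays of those 2 groups were fitted alone (adjusted p = 0.0511). The rise from 12 h to 24 h was 0.60 ± 0.16 (SE; limma adjusted p = 0.0269). It missed the threshold with the RNA 3′ index in the fit, at nearly the same size (0.58, adjusted p = 0.0808), and without any of 12 h replicates 1, 3 and 4 or 24 h replicates 1, 2 and 3 (adjusted p from 0.0533 to 0.09). In ruptured against unruptured follicles the gene was lower by 1.55-fold (-0.63 ± 0.16 SE, limma adjusted p = 0.0158). That call was lost without unruptured replicate 2 (adjusted p = 0.0541) or ruptured replicate 5 (0.0636), and with only the arrays of those groups (0.11). Ruptured follicles were also lower than those at 0 h (-0.83, limma adjusted p = 0.000589) and at 24 h (-0.79, limma adjusted p = 0.00375). The difference from 24 h missed the threshold with only the arrays of the groups compared (limma adjusted p = 0.0645).

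The second HSD17B4 probe set moved the same way over the first 2 steps. It averaged 7.73 ± 0.22 (SD, n = 6) at 0 h, 6.96 ± 0.15 (SD, n = 4) at 12 h and 7.67 ± 0.07 (SD, n = 4) at 24 h, and its 4 follicles at 12 h were below all those of both neighbours. The decrease of 0.77 and the rise of 0.70 both passed (limma adjusted p of 0.000789 and 0.00441). With only the 12 h and 24 h arrays fitted, the rise missed the threshold (limma adjusted p = 0.0719). In ruptured against unruptured follicles its difference of -0.29 did not pass (95% interval -0.58 to -0.0037, limma adjusted p = 0.216). The dimmest probe set (MmugDNA.29085.1.S1_at) lay below the median probe set in nearly all follicles, between 1.39 and 4.95, and was called in 0 of 10 comparisons by limma, with 3 at an unadjusted p under 0.05.

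HSD17B7 was lowest before hCG, higher at 12 h and highest in ruptured follicles. The brightest of its 3 probe sets (MmugDNA.35206.1.S1_at) read 8.52, 8.50, 8.51, 8.60, 8.70 and 9.48 at 0 h. It read 9.93, 9.80, 9.25 and 10.59 at 12 h and 8.97, 10.33, 8.91 and 10.37 at 24 h. The 0 h follicles were tightly grouped but for replicate 6, and the 24 h follicles were split, with replicates 2 and 4 high and replicates 1 and 3 low. At 36 h unruptured follicles read 8.57, 9.44, 9.52 and 9.17, and every ruptured follicle, at 10.86, 10.66, 10.58 and 9.81, was above them.

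The HSD17B7 rise to 12 h was 1.18 ± 0.34 (SE), or 2.26-fold (limma adjusted p = 0.0324), and 1.41 and 0.96 in the other 2 probe sets (limma adjusted p of 0.0312 and 0.0327). It stood near the threshold. For the brightest probe set it was lost without any of 0 h replicates 1 to 5 or 12 h replicates 1, 2 and 4 (adjusted p from 0.0538 to 0.127), with the change itself between 0.94 and 1.39 whichever follicle was left out. At 24 h the difference from 0 h was 0.93 ± 0.34 (SE; limma adjusted p = 0.156), and in unruptured follicles it was 0.46 (adjusted p = 0.555). Ruptured follicles exceeded 0 h follicles by 1.76 ± 0.34 (SE), or 3.39-fold (limma adjusted p = 0.0012). These groups did not overlap in any of the 3 probe sets, nor in 13.7% of all probe sets.

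Against unruptured follicles of the same hour, HSD17B7 was higher in ruptured ones by 1.30 ± 0.37 (SE), or 2.47-fold (limma adjusted p = 0.0293). The second probe set (MmugDNA.35206.1.S1_s_at) gave 3.36-fold (limma adjusted p = 0.0151) and the third (MmugDNA.11013.1.S1_at) 2.39-fold (limma adjusted p = 0.0118). The groups overlapped in neither, nor in 15.2% of all probe sets. The call of the brightest was lost without unruptured replicate 1 or 4 or ruptured replicate 5, 6 or 7 (adjusted p from 0.0616 to 0.101), with the 8 arrays fitted alone (0.0714) and with the RNA 3′ index in the fit, at nearly the same size (1.23, adjusted p = 0.0556). The call of the second was lost without unruptured replicate 1 (0.0587) and with the 8 arrays alone (0.0505), and the third kept its call in each of those fits.

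**Figure D2:**
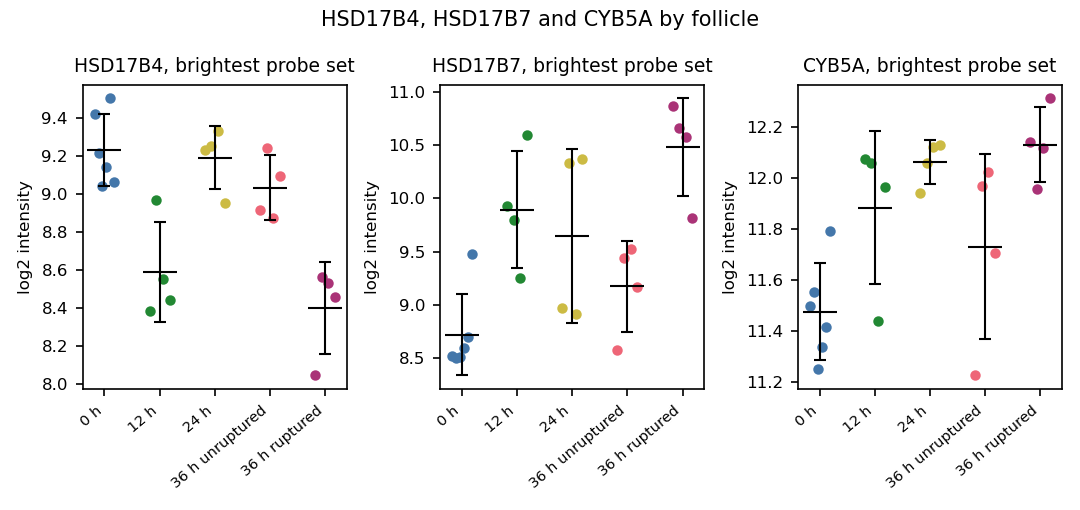
Each point is 1 follicle, the vertical axis is log2 intensity (each panel with its own range), and the bar and whiskers are the group mean and SD, for the brightest probe sets of HSD17B4, HSD17B7 and CYB5A. HSD17B4 is low at 12 h and in ruptured follicles, and all 4 ruptured follicles lie above all 4 unruptured ones for HSD17B7.

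CYB5A was bright in all follicles, and its called changes were rises of under 2-fold. Its brightest probe set (MmuSTS.2276.1.S1_at) read 11.50, 11.55, 11.25, 11.34, 11.42 and 11.79 at 0 h and 12.07, 12.06, 11.44 and 11.96 at 12 h. It read 11.94, 12.06, 12.12 and 12.13 at 24 h, all above the 0 h range. At 36 h it read 11.23, 11.97, 12.02 and 11.71 in unruptured and 12.14, 11.96, 12.12 and 12.31 in ruptured follicles, and unruptured replicate 1 was below every other follicle of the series.

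CYB5A was called higher in ruptured than in 0 h follicles, by 0.66 ± 0.16 (SE) or 1.57-fold (limma adjusted p = 0.00793). The second probe set (MmuSTS.2276.1.S1_x_at) gave 1.73-fold (limma adjusted p = 0.00493). Both calls were lost in a fit blocked by replicate number (0.44 and 0.55, limma adjusted p of 0.506 and 0.455). At 24 h against 0 h the difference was 0.59 (limma adjusted p = 0.0508) in the brightest and 0.74 (adjusted p = 0.0275) in the second. The brightest passed at 24 h with 16 added to intensities (limma adjusted p = 0.0264), with only probe sets of mean log2 at least 5 (0.0137) and with array weights (0.0342). The call of the second was lost with the replicate block (0.134). It was also lost without any of 0 h replicates 3, 4 and 5 or any of the 4 follicles at 24 h (adjusted p from 0.0502 to 0.0824). At 12 h the differences from 0 h of 0.41 and 0.49 did not pass (limma adjusted p of 0.129 and 0.101), nor did those of 0.40 and 0.47 between ruptured and unruptured follicles (0.179 and 0.151). With only probe sets of mean log2 at least 5, both 12 h differences passed (limma adjusted p of 0.0487 and 0.0365). In ruptured follicles CYB5A was thus called higher than at 0 h, while CYP17A1, the enzyme it assists, was 28.0-fold lower. Whether both signals came from the same cells of the whole follicle was not tested.

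Counted over the 12 probe sets, the step from 0 h to 12 h called 3 higher and 5 lower, against 4.28% of all probe sets called higher and 5.05% lower (9.33% in all). By the brightest probe set of each gene, 1 of 6 genes was higher (HSD17B7) and 3 were lower (CYP17A1, HSD17B1 and HSD17B4). Without 1 of 7 single follicles, the probe sets called numbered 5, the loss being the 3 of HSD17B7: these were 0 h replicates 1, 3, 4 and 5 and 12 h replicates 1, 2 and 4. Of all probe sets, 6.64% to 8.32% were called in these 7 fits, against 9.33% with all arrays. From 12 h to 24 h, 2 were called higher, both of HSD17B4, and 2 lower, CYP17A1 and CYP19A1, against 3.67% of all probe sets higher and 3.2% lower (6.88% in all). With those 8 arrays alone, 0 were called, beside 0.358% of all probe sets.

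Between 24 h and unruptured follicles at 36 h, limma called 0 of 12 members and 0.00379% of all probe sets. At an unadjusted p under 0.05 there were 2 of 12, the third HSD17B7 probe set and the second of CYB5A, both with lower values at 36 h. Ruptured against unruptured follicles called 3 higher, all of HSD17B7, and 1 lower, of HSD17B4, against 4.83% of all probe sets higher and 4.99% lower (9.82% in all, and 29.5% of those with a mean log2 of at least 5). Without unruptured replicate 1 or ruptured replicate 5 the count of members called fell from 4 to 2, beside 6.81% and 6.8% of all probe sets. With those 8 arrays alone it was 1, beside 2.5% of all.

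**Figure D3:**
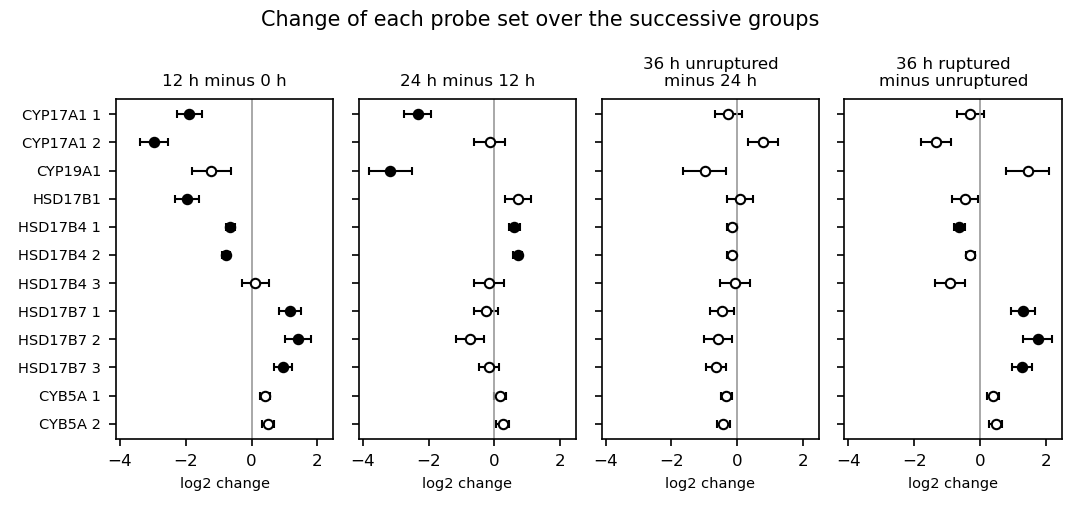
The log2 change of each of the 12 probe sets is shown with its SE for 4 successive comparisons, numbered within a gene from the brightest down, and filled points passed limma's adjusted p of 0.05. CYP17A1 and CYP19A1 carry the largest decreases to 24 h, no point is filled between 24 h and unruptured follicles, and all 3 HSD17B7 probe sets are filled in the last panel.

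Against 0 h, 1 probe set was called higher and 3 lower at 24 h, beside 1.66% and 1.69% of all probe sets (3.36% in all). Unruptured follicles at 36 h had 0 higher and 3 lower, beside 2.08% and 2.65% of all (4.72% in all). Ruptured follicles had 5 higher and 6 lower, beside 7.01% and 8.78% of all (15.8% in all). In that last comparison all 6 genes were called, CYP17A1, CYP19A1, HSD17B1 and HSD17B4 lower and HSD17B7 and CYB5A higher. Of the remaining pairs, unruptured follicles against 12 h had 1 higher and 2 lower, beside 4.97% and 4.85% of all (9.82% in all). Ruptured against 12 h had 0 higher and 2 lower, beside 0.942% and 0.66% of all (1.6% in all), and ruptured against 24 h 0 higher and 2 lower, beside 4.4% and 4.9% of all (9.31% in all). The 3 comparisons with 0 h use the same 6 follicles.

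In the order of their group means, CYP17A1 ran from 0 h through 12 h and 24 h to unruptured and then ruptured follicles, and its last 3 levels did not differ beyond their spread. CYP19A1 ran from 0 h and 12 h, which did not differ beyond their spread, down to ruptured, 24 h and unruptured follicles, and those last 3 did not pass between neighbours either. HSD17B1 was highest at 0 h, followed by unruptured, 24 h, ruptured and 12 h follicles, with none of the last 4 passing between neighbours. The brightest HSD17B4 probe set ran from 0 h through 24 h, unruptured and 12 h to ruptured follicles, and no neighbours in that order passed. Its difference between unruptured and 12 h follicles was 0.45 (95% interval 0.11 to 0.78, limma adjusted p = 0.0905). The second HSD17B4 probe set was called higher in unruptured than in 12 h follicles, with no overlap (0.54, limma adjusted p = 0.0163), and its mean was lower at 12 h (6.96) than in ruptured follicles (7.21). HSD17B7 ran from ruptured follicles through 12 h, 24 h and unruptured follicles down to 0 h, again with no neighbours that passed. CYB5A ran from ruptured follicles through 24 h, 12 h and unruptured follicles down to 0 h, with no neighbours that passed either.

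The brightest HSD17B7 and CYB5A probe sets had a Pearson correlation of 0.75 over the 22 arrays, and of 0.48 after group means were removed. At 0 h replicate 6 was the highest follicle for both, and at 12 h replicate 3 and among unruptured follicles replicate 1 were the lowest for both. The match broke in the remaining groups: ruptured replicate 8 was the lowest for HSD17B7 (9.81) and the highest for CYB5A (12.31), and the lowest 24 h follicle was replicate 3 for HSD17B7 and replicate 1 for CYB5A. The 3 HSD17B7 probe sets correlated at 0.94 to 0.97, so the split among 24 h follicles was seen in each: the second read 6.56, 8.66, 6.67 and 8.28 and the third 6.49, 7.37, 5.87 and 7.45. CYP17A1 and CYP19A1 correlated at 0.90 over all arrays and at 0.39 within groups. These correlations describe arrays that share group means and a joint normalization.

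**Figure D4:**
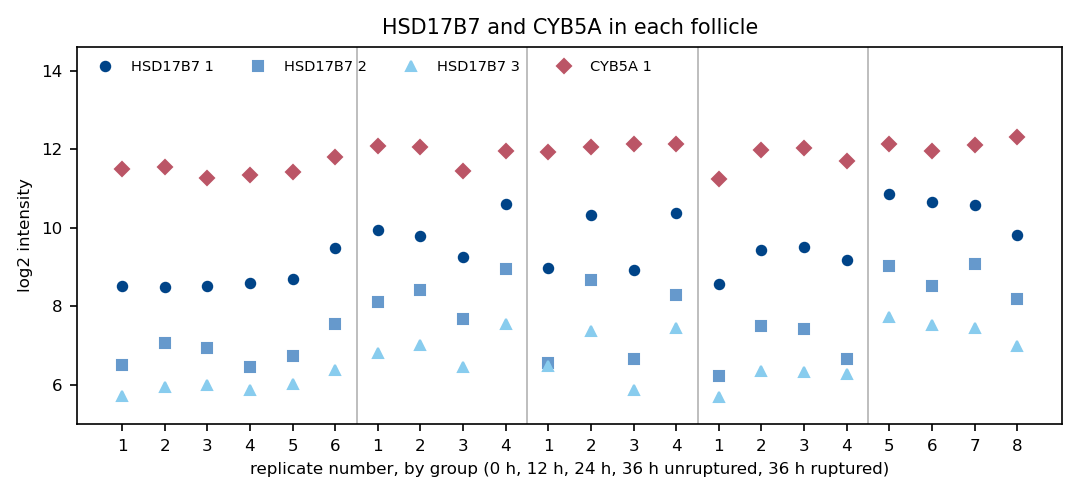
Log2 intensity of the 3 HSD17B7 probe sets and the brightest CYB5A probe set is drawn for each follicle, with replicates along the horizontal axis and vertical lines between the groups. The 3 HSD17B7 series keep the same pattern, with 24 h replicates 2 and 4 above replicates 1 and 3 and all 4 ruptured follicles above the unruptured ones.

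For each enzyme the 3 most similar genes were taken by Pearson correlation over the 22 arrays, among 11305 probe sets of sufficient brightness with a single symbol. CYP17A1 was most like TRIP13 (0.94), GHDC (0.92) and TECPR2 (0.91). CYP19A1 was most like H2AC6, a histone gene (0.93), and the cell cycle genes SKP2 (0.92) and CKS2 (0.92). HSD17B1 was nearest to BAMBI, a decoy receptor of TGF-beta signals (0.89), PLEKHH1 (0.88) and PHKA2 (0.88). HSD17B4 was nearest to RUNDC3A (0.93), CKAP5 (0.91) and ZNF618 (0.90). HSD17B7 was nearest to SPDYA (0.91), RGS2, a regulator of G protein signalling (0.90), and SMIM3 (0.90). For CYB5A the nearest were the gene annotated as JAK-1 (0.89), ROBO1 (0.87) and EXT1 (0.86). Within groups, these correlations ran from 0.23 (TECPR2 with CYP17A1) to 0.89 (JAK-1 with CYB5A). For every named gene but JAK-1 the value within groups was lower than over all arrays, for example 0.61 for TRIP13 and 0.45 for H2AC6.

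Of 24 other measured enzymes of steroid metabolism, 5 were called higher, 3 lower and 16 not at all at 12 h against 0 h, with a median change of 0.18 (4.28% higher and 5.05% lower over all probe sets). HSD11B1, which regenerates active glucocorticoid, rose by 3.93 ± 0.53 (SE; limma adjusted p = 0.000141). CYP21A2, the steroid hydroxylase of the glucocorticoid and mineralocorticoid routes, rose by 2.69 from 3.28, a level below the median probe set (limma adjusted p = 0.00154). CYP11B1, whose probe set could also take signal from its near-identical paralog CYP11B2, rose by 2.00 (limma adjusted p = 0.0345).

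From 12 h to 24 h, 1 of the 24 enzymes was called higher and 3 lower (3.67% and 3.2% over all probe sets). CYP21A2 fell by 2.25 to 3.72, again below the median probe set (limma adjusted p = 0.0139), HSD3B2, which makes progesterone and other delta-four steroids, fell by 2.10 (limma adjusted p = 0.00504), and PAPSS2, which supplies the sulfate donor for steroid sulfation, rose by 0.92 (limma adjusted p = 0.00394). Between 24 h and unruptured follicles limma called 0 of 24. Ruptured against unruptured follicles had 3 higher and 0 lower, with a median change of 0.23 (4.83% and 4.99% over all probe sets). With 21 of 24 not called, the share called was close to the 9.82% over all probe sets. These were HSD3B2 (3.63 ± 0.42 SE, limma adjusted p = 4.48e-05), CYP21A2 (3.00 from a mean of 2.70, well below the median probe set, so its size is uncertain; limma adjusted p = 0.00134) and FDX1, the electron donor of mitochondrial steroid enzymes (1.21, limma adjusted p = 0.000724). The HSD3B2 probe set could take signal from the near-identical HSD3B1.

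Among 31 measured regulators and receptors, 3 were called higher and 5 lower at 12 h against 0 h, with a median change of -0.01 (4.28% higher and 5.05% lower over all probe sets). NR5A1, a transcription factor of steroidogenic genes, fell by 1.62 ± 0.21 (SE; limma adjusted p = 0.000104). PGR, the progesterone receptor, rose by 1.47 (limma adjusted p = 0.0231), and INHBB, a subunit of inhibin and activin, fell by 3.84 from an already dim 4.33 (limma adjusted p = 0.00318). From 12 h to 24 h, 1 was higher and 4 lower (3.67% and 3.2% over all probe sets), among them NR4A1, an early response nuclear receptor (-2.49, limma adjusted p = 0.00857), INHBA, a subunit of activin (-2.38, limma adjusted p = 0.00374), and PGR (-1.70, limma adjusted p = 0.0222). Limma called 0 of 31 between 24 h and unruptured follicles.

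Ruptured against unruptured follicles had 5 of the 31 regulators higher and 2 lower, with a median change of 0.26 (4.83% and 4.99% over all probe sets). NR4A1 was higher by 3.21 (limma adjusted p = 0.000888), INHBA by 3.20 (limma adjusted p = 0.000245) and CREM, a factor responsive to cyclic AMP, by 1.93 (limma adjusted p = 0.00096). Among the cell type markers, where the background was the same 9.82% of all probe sets, the same comparison called 1 of 13 granulosa markers higher (INHBA) and 2 lower (GATM and AMHR2), 1 of 13 theca and stroma markers lower (NR2F2), 1 of 11 endothelial markers lower (TEK) and 1 of 7 oocyte markers higher (ZP4). Between ruptured and unruptured follicles the summed theca and stroma intensity overlapped, while the mean log2 value over those markers did not (7.99 to 8.09 against 8.10 to 8.41). The part of these marker differences in the HSD17B7 and HSD17B4 changes was not tested.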

How the data were processed

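Per the labels' protocols, 2 µg of total RNA per follicle was labelled by the Affymetrix one-cycle method. The authors deposited linear RMA intensity values (RMA per the submitters' processing notes, version not given in the sources used here), from 0.0361 to 15137. The deposited intensities were turned to log2. RMA gives all arrays nearly the same distribution, so differences in total RNA are not kept. From 52865 rows, 99 control probe sets were left out. Of the 52766 tested, 24956 carried 1 gene symbol, 361 several and 27449 none. The 12 member probe sets matched the RefSeq gene table by gene ID. A probe set naming CYB5A with another gene was left out. No arrays held identical values. The number of arrays limits precision.

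One limma model (limma 3.58.1, R 4.3.3) over 5 groups, checked on simulated data, gave 10 two-sided contrasts and an F test, with Benjamini-Hochberg adjustment. Members and gene lists were chosen with earlier results of these data known. All member probe sets are described, led by the brightest of each gene. Named list genes are at most the 3 called with the largest change per list and comparison, and similar genes needed a mean log2 of at least 6. Marker genes named in counts of 5 or fewer were chosen after their values were seen. Alternatives added 16 to intensities, kept probe sets with a mean of at least 5, renormalized by quantiles, fitted compared groups alone, weighted arrays, used the RNA 3′ index as a covariate, blocked by replicate number, or left out each follicle.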

Additional observations from a re-analysis of the deposited data

Results flagged for a closer look

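In 4 of 60 sets formed by 1 probe set in 1 group, a single follicle stood apart from the rest of its group by Dixon's criterion, which by chance alone picks about 1 such set in 20. HSD17B1 read 5.87 in 24 h replicate 4 while the other 3 follicles lay between 7.47 and 7.61. The brightest HSD17B7 probe set read 9.48 in 0 h replicate 6, against 8.50 to 8.70 in the other 5. The third HSD17B7 probe set read 5.68 in unruptured replicate 1, against 6.28 to 6.35. The second CYB5A probe set read 11.75 in 24 h replicate 1, against 11.95 to 11.98.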

How the results depend on the processing

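No member's called change reversed under any alternative. With 1 follicle left out, the member probe sets called numbered 10 to 12 by the F test, beside 17.7% to 19.8% of all probe sets. Against 0 h they numbered 5 to 10 at 12 h (6.64% to 9.06% of all) and 3 to 5 at 24 h (1.82% to 3.06%). Unruptured follicles had 3 to 4 against 0 h (2.7% to 4.01%) and ruptured ones 11 to 12 (13.2% to 15.7%). Against 12 h the members called numbered 3 to 4 at 24 h (4.17% to 6.42% of all), 2 to 4 in unruptured (7.05% to 9.58%) and 1 to 2 in ruptured follicles (0.898% to 1.94%). Against 24 h there were 0 in unruptured (at most 0.00948%) and 1 to 2 in ruptured follicles (6.4% to 8.93%). Ruptured against unruptured follicles had 2 to 4 (6.8% to 8.72%). With only the arrays compared, members called numbered 0 at 24 h against 12 h, beside 0.358% of all probe sets. Against 12 h they numbered 1 in unruptured (2.27% of all) and 0 in ruptured follicles (0.0171%). Ruptured follicles had 0 against 24 h (2.41%) and 1 against unruptured ones (2.5%). Fewer arrays then estimate the spread, and each of these shares was below that with all arrays. Keeping probe sets with a mean of at least 5 gave 6 in unruptured against 12 h, where fewer are tested. That fit called 28.7% of its 23969 probe sets in this comparison, against 9.82% of all in the main fit. Array weights and the RNA 3′ index each gave 1 in ruptured against 12 h, beside 1.32% and 0.605% of all probe sets. Quantile renormalization changed no call of a single probe set. With the second CYP17A1 probe set, CYP19A1 minus CYP17A1 moved from 0.68 to 1.73 at 12 h against 0 h, from -0.83 to -3.02 at 24 h against 12 h, from -0.71 to -1.77 in unruptured against 24 h, and from 1.74 to 2.77 in ruptured against unruptured; none passed (exact permutation, adjusted p of 0.114 to 0.121).

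Only 4 of 26 same-numbered pairs of follicles had deviations correlated above 0.1. These correlations showed no pairing by number but cannot exclude it, since the labels do not state which arrays share an animal. With the replicate block, ruptured against 0 h called 2 members, both of CYP17A1, and 1036 of all probe sets in place of 8332. The calls of CYP19A1, HSD17B1, HSD17B4, HSD17B7 and CYB5A were lost there (limma adjusted p from 0.0553 to 0.506). Numbers 7 and 8 occur only among ruptured follicles, so that blocked comparison rested on replicates 5 and 6 of both groups. The blocked fit called 2418 of all in place of 4922 at 12 h against 0 h and 2021 in place of 3628 at 24 h against 12 h. By the F test it called 4285 in place of 10626. Of 20 arrays, 0 correlated best with their own number. Ruptured follicles share no number with the 12 h, 24 h or unruptured groups, so no block was fitted there.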
